A study of Mus musculus with 4 samples.

Results

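Tcerg1l, Cd55 and Dmrt2 are 3 of the 29924 genes named on a mouse whole-genome array, and they were selected on their large measured rises in cultured embryonic ureters after inhibition of WNT secretion. The members comprised all 5 probes that carry one of these names, 3 for Tcerg1l and 1 each for Cd55 and Dmrt2. Because the treated over control ratios chose the genes, these ratios are given as a description and without a test.

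Ureters of wildtype NMRI embryos at E12.5 were kept as explants for 18 h in medium with IWP-2 at 10 µM, or with the solvent DMSO (2:1000) as the control. Each of 4 two-colour arrays compared RNA of 1 treated and 1 control pool of explants, 8 numbered pools in all per the labels. The treated RNA carried the red dye on arrays 1 and 3 and the green dye on arrays 2 and 4. The comparison asked which genes of the early ureter respond to a short block of WNT signaling. In whole explants, fewer cells of a type and less RNA per cell cannot be told apart.

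IWP-2 inhibits Porcupine, an enzyme that attaches a lipid to WNT proteins, without which they are not secreted. Cells that receive WNT stabilise beta-catenin, which enters the nucleus and acts with TCF/LEF proteins on target genes. In the early ureter this pathway is active in the mesenchyme around the epithelial tube. The 3 genes have unlike roles. Cd55 encodes decay-accelerating factor, a surface protein held by a GPI anchor that speeds the decay of the complement convertases and so protects host cells from complement. It is also a ligand of the adhesion receptor CD97. Dmrt2 encodes a DM-domain transcription factor known for its part in the dermomyotome of the somite. Tcerg1l is little characterised, and its name assigns it to the regulation of transcription elongation.

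The 60-base probes are the sequences that were measured. A probe of Tcerg1l and one of Daf2, the array's name for Cd55b, a duplicate of Cd55, are shown whole as examples of what the array reads. Of the others, 30 bases are shown, with the letters AATAAA, the common polyadenylation signal, in capitals where a probe holds them.
Tcerg1l A_52_P114962: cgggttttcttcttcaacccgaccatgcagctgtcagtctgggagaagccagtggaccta
Daf2 A_66_P106385: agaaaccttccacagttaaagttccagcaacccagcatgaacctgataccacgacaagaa
Tcerg1l A_52_P95294, bases 31 to 60: cacccttgtgaatcgtgatcacttgcaggt
Tcerg1l A_55_P2156140, bases 18 to 47: tgatgttgggaaAATAAAgatgtcctaggt
Cd55 A_55_P2101585, bases 31 to 60: atgacatgttcatagccaaactgtaaatca
Dmrt2 A_51_P146970, bases 31 to 60: attccaaaaagcAATAAAaataacaccgtc
The Tcerg1l probe A_52_P114962 had no stop codon in any of its 3 sense frames, whereas A_55_P2156140 and the Cd55 probe had a stop codon in each frame. The letters AATAAA began at base 43 of the Dmrt2 probe and at base 30 of A_55_P2156140. No exon or untranslated region was assigned, since no annotation of the build was used. The longest run of bases that the Cd55 probe shared with either Daf2 probe was 6 bases. Hybridisation of the transcript of one gene to the probe of the other was not tested, so that the values of the Cd55 and Daf2 probes are uncertain to that extent.

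On the mm9 build the 3 Tcerg1l probes lie on the minus strand of chromosome 7, at chr7:145400878-145400937 (A_52_P95294), chr7:145450270-145450329 (A_55_P2156140) and chr7:145451551-145451610 (A_52_P114962). The Cd55 probe lies on the minus strand at chr1:132335716-132335775, and the Dmrt2 probe on the plus strand at chr19:25753414-25753473. The files give A_55_P2156140 a target of its own, the transcript ENSMUST00000162222. Where several probes carried a gene's name, the brightest one stood for it, which for Tcerg1l was A_52_P95294.

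Tcerg1l, the little-characterised gene, showed the largest rise of the members by its brightest probe, though not by the mean of its 3 probes (1.38). Its brightest probe gave processed signals, that is scanner intensities after background subtraction and dye normalisation, of 162, 179, 262 and 244 in the control channel of arrays 1 to 4. In the treated channel of the same arrays it gave 647, 764, 944 and 847. The lowest treated signal was 2.47 times the highest control signal, a gap that the choice of the genes on their rise favours. How many of all genes had such a gap was not counted. Within an array the treated signal was 3.98, 4.27, 3.61 and 3.48 times that of the control. After background correction and normalisation within each array, log2 ratios (treated over control) were 1.91, 1.99, 1.75 and 1.70, a mean of 1.84 ± 0.13 (SD, n = 4) or 3.57-fold.

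Cd55, the complement regulator, was higher with IWP-2 on every array as well. Processed signals were 1330, 1267, 1624 and 1695 with DMSO, and 3549, 4720, 5335 and 5183 with IWP-2. Its lowest treated signal was 2.09 times its highest control signal. Array 1 gave the smallest ratio, 2.67-fold, and array 2 the largest, 3.73-fold, while arrays 3 and 4 gave 3.28-fold and 3.06-fold. The normalised log2 ratios were 1.44, 1.89, 1.69 and 1.59, a mean of 1.65 ± 0.19 (SD, n = 4) or 3.15-fold. Of the 3 genes Cd55 had the widest spread between arrays.

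Dmrt2, the DM-domain factor, had a smaller and more even rise than Cd55 and than the brightest Tcerg1l probe. Its processed signals were 160, 185, 247 and 203 with DMSO and 433, 569, 668 and 558 with IWP-2. Between the highest control and the lowest treated signal there was a gap of 1.75 times. The treated signal was 2.72, 3.08, 2.70 and 2.76 times that of the control on arrays 1 to 4. Normalised log2 ratios were 1.32, 1.52, 1.34 and 1.35, a mean of 1.38 ± 0.09 (SD, n = 4) or 2.60-fold. Arrays 1, 3 and 4 lay close together and array 2 stood above them. The median SD between arrays over all genes tested was 0.11, so that of Dmrt2 lay below and those of Cd55 and Tcerg1l above it.

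**Figure D1:**
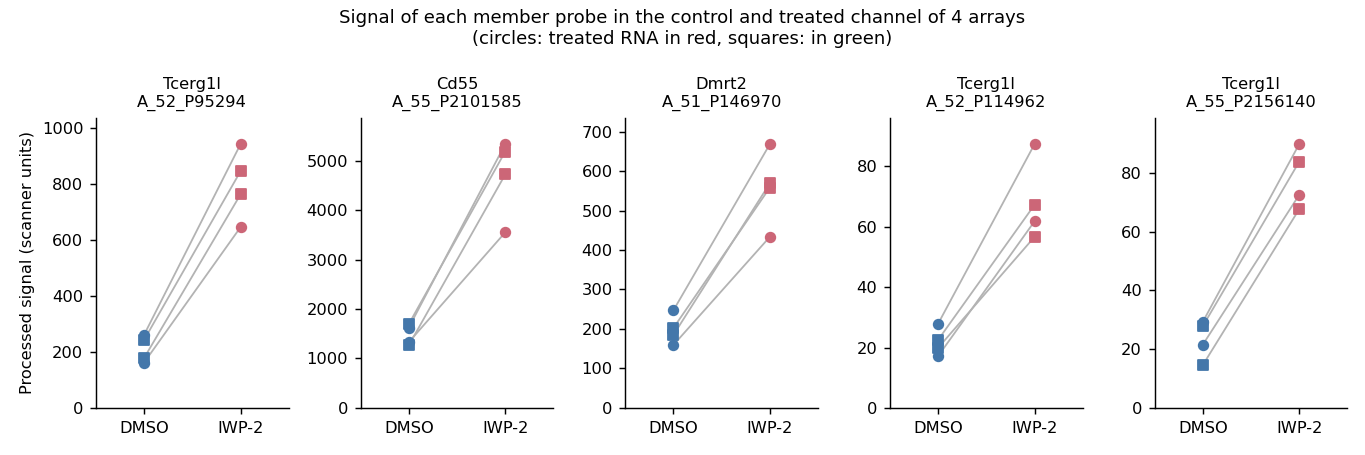
Processed signal in scanner units (vertical axis, a separate linear scale from 0 for each probe) of the 5 member probes with DMSO and with IWP-2, 1 point per channel and 1 line per array, circles for treated RNA in red and squares for treated RNA in green. Every line rises, and in each panel the lowest treated point lies above the highest control point, by 2.47 times for the brightest Tcerg1l probe, 2.09 times for Cd55 and 1.75 times for Dmrt2. The genes were chosen on this rise, which favours such a gap.

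Cd55 and Dmrt2 are each read by a single probe, whereas Tcerg1l has a pair of further probes. A_52_P114962 was dim, with processed control signals of 17.2, 19.9, 27.9 and 22.6 and treated signals of 61.9, 56.7, 87.4 and 67.3. On the arrays in turn this was a 3.60-fold, 2.85-fold, 3.13-fold and 2.98-fold difference. A_55_P2156140 was as dim, with 21.5, 14.6, 29.3 and 27.8 in the control and 72.6, 67.7, 89.9 and 83.9 in the treated channel. Its ratios were 3.37-fold, 4.64-fold, 3.07-fold and 3.01-fold. The lowest treated signal was 2.03 times the highest control signal for A_52_P114962 and 2.31 times for A_55_P2156140. Each of these probes was well above background in both channels of all 4 arrays.

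The size of the rise at the dim Tcerg1l probes depended on how the background was treated. With normexp correction and an offset of 50, the setting used for all genes, A_52_P114962 gave a mean log2 ratio of 1.09 ± 0.06 (SD, n = 4) and A_55_P2156140 one of 1.21 ± 0.17. With an offset of 16 the values were 1.29 ± 0.06 and 1.44 ± 0.22. With the processed signals they were 1.66 ± 0.15 and 1.82 ± 0.30, close to the 1.95 ± 0.15 of the brightest probe on the same scale. The offset is added to both channels before the ratio is taken and so draws the ratios of dim probes towards 0. The brighter probes moved less between these settings, from 1.84 to 1.95 for A_52_P95294, from 1.65 to 1.68 for Cd55 and from 1.38 to 1.51 for Dmrt2. The 3 Tcerg1l probes therefore differed by up to 0.75 in mean log2 ratio with the offset of 50 and by up to 0.29 with the processed signals.

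**Figure D2:**
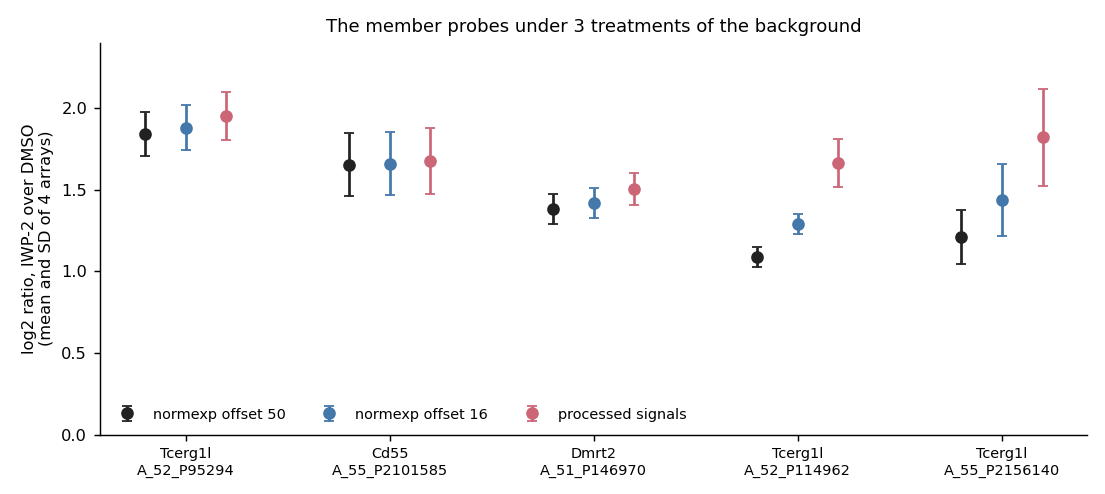
Mean log2 ratio of IWP-2 over DMSO with the SD of 4 arrays (vertical axis) for the 5 member probes (horizontal axis) under normexp correction with an offset of 50, with an offset of 16, and with the processed signals. The dim Tcerg1l probes A_52_P114962 and A_55_P2156140 move from 1.09 to 1.66 and from 1.21 to 1.82, while Cd55 stays between 1.65 and 1.68.

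Each probe was printed in 4 spots per array, so 16 spots report on each probe. All 16 spots of every member probe had a positive log2 ratio. With spots marked as outliers included, the lowest spot was 1.63 and the highest 2.04 for the brightest Tcerg1l probe. They were 1.36 and 1.93 for Cd55, and 1.23 and 1.56 for Dmrt2. Feature Extraction had marked 3 spots of A_52_P95294 and 1 spot each of A_55_P2156140, Cd55 and Dmrt2 as outliers. These were left out of the array ratios, and no spot was saturated. Over all 16 spots, the marked ones included, the pooled SD within an array was 0.06 for A_52_P95294, 0.05 for Cd55 and 0.07 for Dmrt2. For A_52_P114962 this SD was 0.06 and for A_55_P2156140 it was 0.12. For Cd55 the array means differed by more than the spots within an array did, since the spots of array 1, from 1.36 to 1.49, did not overlap those of array 2, from 1.84 to 1.93. Spots of 1 array share their RNA and are no replicates of the treatment.

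**Figure D3:**
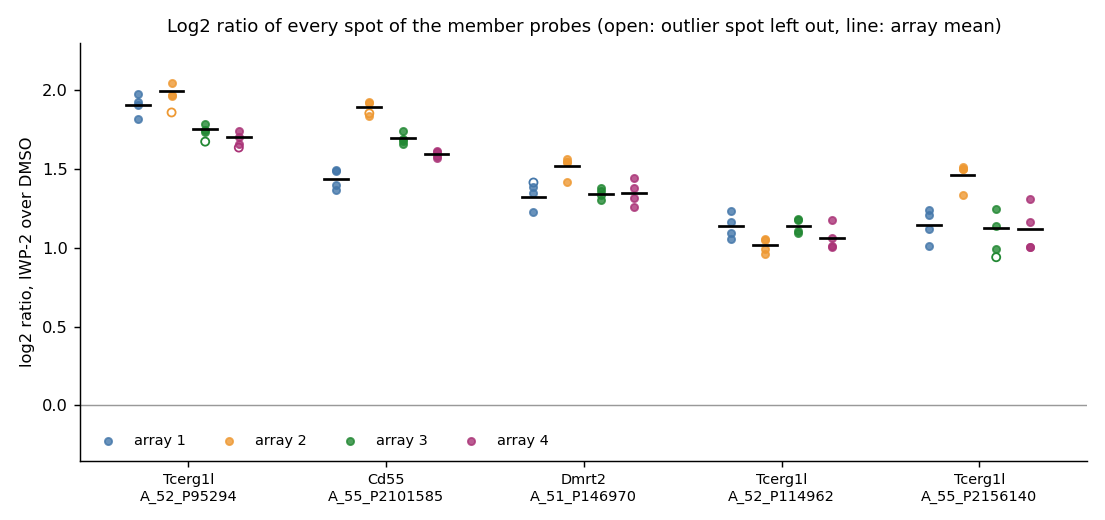
Log2 ratio of IWP-2 over DMSO (vertical axis) of every spot of the 5 member probes, coloured by array, with outlier spots that were left out drawn open and the array mean as a line. All spots lie above 0, from 1.63 to 2.04 for A_52_P95294, 1.36 to 1.93 for Cd55 and 1.23 to 1.56 for Dmrt2, and the arrays of Cd55 form separate groups.

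The dye order, which the choice of the genes did not use, was tested with a dye term in the limma fit. With treated RNA in red and in green, the mean log2 ratios were 1.83 and 1.85 for Tcerg1l, 1.56 and 1.74 for Cd55, and 1.33 and 1.43 for Dmrt2. The dye term was −0.01 for Tcerg1l (adjusted p = 0.955), −0.09 for Cd55 (adjusted p = 0.491) and −0.05 for Dmrt2 (adjusted p = 0.557), all by limma with Benjamini-Hochberg adjustment over 22455 genes. Over all genes 0 passed an adjusted p of 0.05 for the dye. However, 4233 of the 22455 genes had an unadjusted p under 0.05, a larger share than this threshold alone would give.

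The treatment itself was fitted in the same way for the 22455 genes whose probe exceeded background clearly on all 4 arrays, either with DMSO or with IWP-2. All 3 genes met this filter, and did so in both channels. In this fit, 4068 genes or 18.1% were higher with IWP-2 and 3360 or 15% were lower at an adjusted p under 0.05. Without array 3 the lower count was 2180. The members belong to the first group by the way they were chosen. The cut-offs that the study names, a fold change over 2 and an intensity over 100, were applied here to each of the 4 arrays, with the brighter channel as the intensity, and left 21 of the 29924 genes on the higher side, 0.0702%. Tcerg1l, Cd55 and Dmrt2 were among them, again by their choice. Among the 3656 genes with a name that were called higher, ordered by mean log2 ratio, Tcerg1l ranked 2, Cd55 ranked 4 and Dmrt2 ranked 8.

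The genes next to them in this order were as follows. Gm12680 at 2.36 ± 0.19 (SD, n = 4) stood above Tcerg1l. Slc38a5, an amino acid transporter gene, stood between Tcerg1l and Cd55 at 1.75 ± 0.15. Aspn, which encodes the matrix protein asporin, followed Cd55 at 1.42 ± 0.29. Dmrt2 lay between 1110032F04Rik at 1.39 ± 0.12 and Tcf24, a bHLH factor gene, at 1.38 ± 0.08. Tcerg1l and Slc38a5, Slc38a5 and Cd55, and Dmrt2 and its neighbours differed by less than their SD between arrays, while Gm12680 lay further above Tcerg1l, and Aspn further below Cd55, than the SD of the member.

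Likeness over the 4 arrays was measured as the root mean squared difference of the log2 ratios, which mostly compares the height of the rise. Nearest to Tcerg1l were Slc38a5 at 0.14, Cd55 at 0.25, Aspn at 0.45, Dmrt2 at 0.46 and Pcdh8, a protocadherin gene, at 0.48. Cd55 was nearest to Tcerg1l at 0.25, Slc38a5 at 0.27, Dmrt2 at 0.29, 1110032F04Rik at 0.31 and Bhlhe22, a bHLH factor gene, at 0.32. Dmrt2 lay much closer to its nearest genes, with Bhlhe22 at 0.08, Daf2 at 0.10, 1110032F04Rik at 0.10 and Tcf24 at 0.14. There are more genes at the height of Dmrt2 than at that of Tcerg1l, and small distances are easier to reach there.

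The WNT readouts Sp5, Nkd1, Axin2 and Lef1, known targets of beta-catenin, all fell in the same fit. Their mean log2 ratios were −2.72, −1.59, −1.56 and −1.47. Tcerg1l, Cd55 and Dmrt2 thus differed from control in the opposite direction to these targets.

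The 250 bases before the start of each gene are printed because the members rose in the same explants. They come from the RefSeq promoter table, build GRCm38.p6, which holds 32851 entries and in which all 3 genes were found. The capitals mark matches to 6 motifs searched on both strands, of which 4 were TCF/LEF letters (CTTTGAA and the forms of it that end in AT, TA or TT), 1 was the GC box GGGCGG and 1 the TATA letters TATAAA. The TCF/LEF motifs differ only in their last letters, so that no pair of them can match at the same place on 1 strand.
Tcerg1l, chr7:138397731-138397980, minus strand: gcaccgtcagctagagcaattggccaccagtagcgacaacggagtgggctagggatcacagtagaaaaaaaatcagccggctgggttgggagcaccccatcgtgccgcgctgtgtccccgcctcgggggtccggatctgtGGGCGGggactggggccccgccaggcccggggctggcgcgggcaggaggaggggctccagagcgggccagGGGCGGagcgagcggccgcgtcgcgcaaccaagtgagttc
Cd55, chr1:130462745-130462994, minus strand: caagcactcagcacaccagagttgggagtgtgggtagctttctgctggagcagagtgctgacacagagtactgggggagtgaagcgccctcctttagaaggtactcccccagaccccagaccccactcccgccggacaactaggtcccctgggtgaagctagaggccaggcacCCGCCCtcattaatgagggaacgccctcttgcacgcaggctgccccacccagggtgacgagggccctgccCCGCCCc
Dmrt2, chr19:25672161-25672410, plus strand: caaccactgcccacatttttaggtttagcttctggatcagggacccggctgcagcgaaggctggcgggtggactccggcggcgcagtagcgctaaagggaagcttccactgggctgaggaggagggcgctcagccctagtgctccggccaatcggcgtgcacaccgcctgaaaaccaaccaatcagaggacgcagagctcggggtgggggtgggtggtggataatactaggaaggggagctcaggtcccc
Tcerg1l held 2 GC boxes on the strand of the gene, and Cd55 held 2 on the other strand, where they read CCGCCC in the printed sequence. Dmrt2 held none of the 6 motifs. Of all promoter entries, 32.7% had a GC box in this window, 14.8% at least 1 of the TCF/LEF motifs and 12.4% the TATA letters. The share of G and C was 69.6% for Tcerg1l, 64% for Cd55 and 62.4% for Dmrt2, above that of 90.2%, 80.8% and 77.5% of the promoters. No TCF/LEF match stood in the 3 windows, which says only that these letters are not there.

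Genes beside the members were examined within 500 kb of the member's probe on the mm9 build. Around Cd55, 11 genes were tested, of which 4 were higher and 2 lower with IWP-2, against 18.1% and 15% over all genes. The nearest was Daf2 (Cd55b), 27720 bp away, a complement regulator gene like Cd55 itself. It rose by a log2 ratio of 1.34 ± 0.11 (SD, n = 4, limma adjusted p = 2.86e-05), with 1.22, 1.41, 1.45 and 1.28 on arrays 1 to 4. Its processed signals were 565, 640, 811 and 829 with DMSO and 1353, 1722, 2290 and 2051 with IWP-2. The second Daf2 probe, A_55_P2073238, gave 1.39 ± 0.13. All 4 arrays thus showed a rise at both probes. Daf2 was the only tested neighbour with a rise of this size, and Cd55 itself was at 1.65 ± 0.19.

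Farther out, C4bp, which encodes a fluid-phase complement regulator, fell by 0.62 on the log2 scale (SD 0.12, adjusted p = 0.000549) at 196949 bp on the other side of Cd55. Thsd7b, on the side of Daf2 at 220138 bp, fell by 1.06 (SD 0.26, adjusted p = 0.000715). Pfkfb2 (0.30 ± 0.10), Gm28856 (0.28 ± 0.11) and AA986860 (0.17 ± 0.08) were slightly higher, with adjusted p of 0.00307, 0.0100 and 0.0205, and the call of AA986860 was lost without array 2, 3 or 4. Yod1, 6330564D18Rik and the cytokine genes Il24, Il20 and Il19 had log2 ratios between −0.09 and 0.12 and did not pass the test. The rise near Cd55 was measured at both DAF genes, and the next genes on either side had lower ratios.

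Dmrt2 had 5 tested neighbours, 1 of which was higher and none lower, the higher share being near that over all genes. Dmrt1, a related DM-domain gene 75433 bp away, had a log2 ratio of 0.03 ± 0.12 (SD, n = 4, adjusted p = 0.659). Dmrt3, also in this cluster, was not tested, as its probe was well above background on 2 arrays with IWP-2 and on none with DMSO. AK146780, ENSMUST00000182565 and Kank1 had ratios of 0.03, 0.00 and 0.05 and did not pass the test. Dock8, at 477366 bp, was at 0.26 ± 0.11 (adjusted p = 0.0124). None of these 5 neighbours had a rise near that of Dmrt2. No gene was tested within 500 kb of the Tcerg1l probe, where the nearest tested genes were Glrx3 on one side (0.02 ± 0.13, adjusted p = 0.757) and Mapk1ip1 on the other (0.29 ± 0.08, adjusted p = 0.00410), both named after their values were seen.

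**Figure D4:**
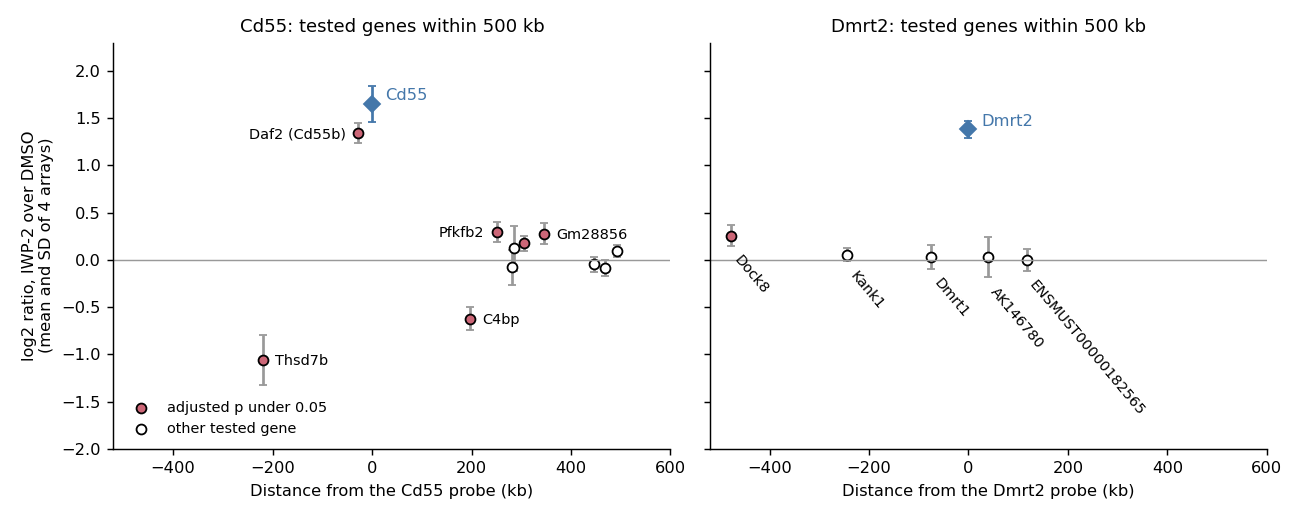
Mean log2 ratio of IWP-2 over DMSO with the SD of 4 arrays (vertical axis) of the tested genes within 500 kb, against their distance in kb from the Cd55 probe (left) and the Dmrt2 probe (right), with genes at an adjusted p under 0.05 filled and the member as a diamond. Beside Cd55 at 1.65 stands Daf2 (Cd55b) at 1.34, while the genes around Dmrt2 lie between 0.00 and 0.26.

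Cd55 acts with other regulators that keep complement from attacking host cells. Of 13 further regulator genes 12 were tested, and Vtn was not well above background. Against the 18.1% higher and 15% lower over all genes, 1 of the 12 was higher and 3 were lower, with a median log2 ratio of −0.02 against 0.00 over all genes. The 1 higher gene was Daf2, and without array 4 there were 2 higher genes. Of the soluble inhibitors, C4bp fell by 0.62 on the log2 scale (SD 0.12), Clu, clusterin, by 0.31 (SD 0.07), and Serping1, the C1 inhibitor, by 0.21 (SD 0.07), a call that was lost without array 3 or array 4. Cfi, complement factor I, at −0.04 ± 0.15 did not pass. The membrane regulators other than the DAF genes did not pass the test, with Cd59b at −0.13 (adjusted p = 0.0672), Cd59a at 0.00, Cr1l at 0.03 and Cd46 at 0.07.

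Complement components and receptors were listed for the pathway as a whole, and most of them are not direct partners of Cd55. They showed smaller differences than Cd55. Of 25 listed genes 18 were tested, 6 of which were higher and 1 lower, against 18.1% and 15% over all genes, with a median of 0.09. C2, a part of the classical convertase that Cd55 takes apart, was at 0.67 ± 0.21 (SD, n = 4), with array 3 at 0.98 and the others between 0.55 and 0.59. C3ar1, the receptor for C3a, was at 0.31 ± 0.06. The C1q genes C1qb, C1qc and C1qa stood at 0.29 ± 0.21, 0.28 ± 0.21 and 0.20 ± 0.22, the last no longer past the test without array 1. Adgre5, which encodes the Cd55 receptor CD97, was higher by 0.22 ± 0.10. Masp2, a protease of the lectin pathway, fell by 0.48 (SD 0.11) at its brightest probe. Over the 16 alternatives of processing its log2 ratio ran from −0.53 to −0.21. It passed the test in all 16, with the highest limma adjusted p, 0.00841, for the mean of all its probes. C3 itself, at 0.02 ± 0.06, did not pass, and the largest change that did not was Masp1 at 0.14. Macrophages are a known source of C1q and C3ar1 transcripts, and 4 of 6 macrophage markers were higher as well, with a median of 0.15 and a summed processed signal of 2572 to 3843 with DMSO and 3127 to 4474 with IWP-2. Of these calls, that of Fcgr1 was lost without any 1 array and that of Mrc1 without array 1, 2 or 3. Those of Adgre1 (0.49) and Lyz2 (0.43) were kept. Csf1r at −0.05 and Cx3cr1 at 0.05 did not pass, all named after their values were seen. The part of macrophages in the complement values was not tested.

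Among the DM-domain genes related to Dmrt2, 4 of 7 were tested, while Dmrt3, Dmrtb1 and Dmrtc2 were not. None rose and 2 fell, against 18.1% higher and 15% lower over all genes. Dmrta1 fell by 0.92 on the log2 scale (SD 0.31, adjusted p = 0.00122), its processed signal going from 107, 85.9, 141 and 126 with DMSO to 48.1, 56.1, 52.7 and 49.4 with IWP-2. Dmrta2 fell by 0.43 (SD 0.14, adjusted p = 0.00344). Dmrtc1a at 0.06 and Dmrt1 at 0.03 did not pass the test. The family thus held a member that was higher, members that were lower and members with ratios near 0. With the authors' table of fold changes in place of the scanner signals, Dmrta1 and Dmrta2 kept their direction but had an adjusted p of 0.0684 each.

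Dmrt2 is known from the somite, and 10 of 15 somite and dermomyotome genes were tested. Of these 4 were higher and 1 was lower, against 18.1% and 15% over all genes, with a median of 0.08. The higher count was 1 with processed signals over 100 only and 0 with the authors' table of fold changes. The homeobox genes Meox2 (0.48 ± 0.17) and Meox1 (0.39 ± 0.21), the bHLH-PAS factor gene Sim1 (0.41 ± 0.18) and the paired-box gene Pax9 (0.21 ± 0.10) were higher, all by far less than Dmrt2. Meox1 is also 1 of the nephron progenitor markers. Myf6, a muscle regulatory factor gene, fell by 0.16 (SD 0.06). Its call was lost on leaving out any 1 array. Pax3, at −0.05 ± 0.23, and Pax7, at 0.00 ± 0.03, key genes of the dermomyotome, did not pass the test. The largest change that did not was Tcf15 at 0.15. Myf5, Myog, En1, Pax1 and Uncx were not tested. Of 6 skeletal muscle markers 4 were tested and 2 of these were lower, Ckm was not well above background, and the summed signal was 181 to 335 with DMSO and 156 to 274 with IWP-2.

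By its name Tcerg1l belongs to transcription elongation. Of 25 genes for transcription elongation 24 were tested, 5 being higher and 4 lower with a median of 0.00, near the 18.1% and 15% over all genes. Aff1 (0.41 ± 0.08), Ell3 (0.40 ± 0.16), Tcea3 (0.37 ± 0.17), Nelfb (0.18 ± 0.09), Ell (0.16 ± 0.09) were higher, and Ctr9 fell by 0.24 (SD 0.08). Tcea1, Leo1 and Ccnt1 were the other lower genes. The largest change not past the test was Ell2 at −0.14. The lower count dropped to 2 without array 1 and to 1 without array 3 or 4, and the higher count to 3 without array 2 or 4.

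**Figure D5:**
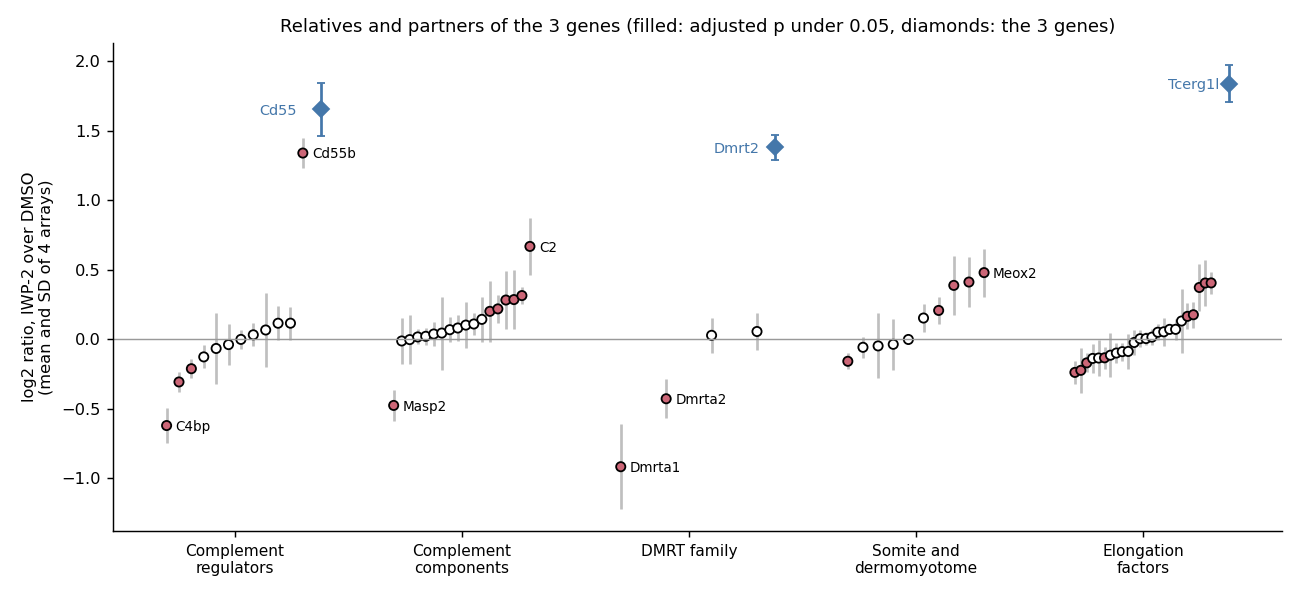
Mean log2 ratio of IWP-2 over DMSO with the SD of 4 arrays (vertical axis) of the tested genes of 5 lists (horizontal axis), with genes at an adjusted p under 0.05 filled and Cd55, Dmrt2 and Tcerg1l drawn as diamonds. Daf2 (Cd55b) at 1.34 is the only listed gene near the 3 diamonds, and Dmrta1 at −0.92 is the lowest.

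Marker genes of several cell types were examined in the explants. All 7 epithelial and all 6 mesenchymal markers were well above background, which cannot tell a ureter from other organs with both tissues. The epithelial markers were all higher with IWP-2, with a median of 0.30 and a summed signal of 40882 to 54041 with DMSO and 46388 to 67147 with IWP-2. Of the mesenchymal markers 1 was higher and 1 lower, with sums of 84239 to 116098 and 90734 to 118138. Markers of blood (4 of 6 higher), endothelium (4 of 6) and collecting duct (3 of 7 tested higher, 1 lower, with Atp6v1b1 not well above background) had medians of 0.27, 0.19 and 0.19. The blood calls of Hbb-y and Hba-a1, named after their values were seen, were lost without the dye term. On arrays 1 to 4 Hbb-y was at 0.61, −0.10, 0.73 and −0.14. Nephron progenitor markers (5 of 6 higher, 1 lower) had a median of 0.22, and neural crest markers (2 higher, 1 lower of 6) one of 0.15. Summed signals of the blood markers were 65048 to 102564 with DMSO and 87913 to 122001 with IWP-2. Those of the nephron progenitor markers were 11242.5 to 14125.3 and 12188.5 to 16069.5. Over all genes 18.1% were higher and 15% lower. Single markers changed by far more than these medians, with Six2 at 1.14 ± 0.27 and Crym at −0.96 ± 0.45 among the nephron progenitor markers, Pdgfrb at 0.80 ± 0.07 and Tbx18 at −0.74 ± 0.26 among the mesenchymal ones, and the neural crest marker Ednrb at −1.38 ± 0.29, all named after their values were seen. Which cells of the explant carried the transcripts of the 3 genes was not tested.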

How the data were processed

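Gene expression was measured on 4 two-colour Agilent arrays on 1 slide with 1 scan time. Per the submitters' processing notes the authors used Agilent Feature Extraction 10.7.3.1. The deposited files hold raw mean and background intensities, processed intensities (background-subtracted and dye-normalised, per the file headers) and a log10 ratio of red over green per spot, used here only to check direction (r = 0.987 on array 1). The deposited series table holds a score, a signed fold change rounded to 1 decimal, of unstated normalisation. Its log2 values correlated with r of 0.910 to 0.916 with the processed ratios, which sets its direction but not its scale or centring, and each column had a median of 1.

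Raw intensities were corrected in limma 3.58.1 (R 4.3.3) with normexp (offset 50), normalised by loess within arrays (span 0.3), and averaged over the spots of a probe without control and outlier spots (3.01% to 3.38% of gene spots). Ratios were turned to treated over control and fitted on treatment and dye (lmFit, eBayes, 2 residual degrees of freedom). A probe was well above background in a channel when more than 0.5 of its spots were. P-values are two-sided and were adjusted by Benjamini-Hochberg over 22455 genes (threshold 0.05). The fit was tested on simulated data. Median raw signals were 368 to 711 (control) and 385 to 694 (treated), with backgrounds of 28 to 77, and ratios of different arrays correlated across genes with r of 0.625 to 0.831. The number of arrays limits the precision.

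The labels number 4 pools per group, and the study's methods also give n = 4 for E12.5. Its results and a figure legend speak of fewer, so arrays of opposite dye could share RNA. P-values rest on the spread between these arrays only, as left after the dye term and drawn by eBayes towards that of all genes. The SD printed beside a mean still holds the dye difference and is not the spread that was tested. Across genes the difference of arrays 1 and 3 correlated with that of arrays 2 and 4 with r of −0.04.

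The members, gene lists and tests were chosen with earlier results of these data known. Named were the members with all probes, the 5 named genes nearest to each, the genes next in rank, up to 6 genes past the test and the largest change not past it per list (for Cd55's and Dmrt2's lists also single genes of known role, chosen after their values were seen, and for marker lists counts only), all tested neighbours within 500 kb, and 4 WNT readouts. The alternatives were other background corrections, scalings, filters, probe and spot summaries, models and left-out arrays. Positions are those of the files (mm9), promoters those of RefSeq (GRCm38.p6). A few genes are not reported here.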

Additional observations from a re-analysis of the deposited data

Results flagged for a closer look

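In 5 of 84 sets of 4 array ratios examined (the 5 member probes, the listed genes past the test and the neighbours), 1 array stood apart from the other three by more than Dixon's critical value. About 1 in 20 such sets is flagged by chance, which gives 4.2 of 84. Of the members, the Dmrt2 probe A_51_P146970 had a log2 ratio of 1.52 on array 2, and the Tcerg1l probe A_55_P2156140 had 1.46 on array 2. Of the other genes, C2 had 0.98 on array 3, the macrophage marker Lyz2 had 0.56 on array 3, and the collecting duct marker Slc26a4 had 0.77 on array 1.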

How the results depend on the processing

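The log2 ratios of the 3 genes stayed positive under all 16 alternatives, from 1.38 to 1.95 for Tcerg1l, 1.57 to 1.73 for Cd55 and 1.34 to 1.51 for Dmrt2. Tcerg1l moved by more than its SD with the mean of all its probes (1.38), and Dmrt2 with the processed signals (1.51) and with the series table (1.51). With 1 array left out the ranges were 1.79 to 1.88 for Tcerg1l, 1.57 to 1.73 for Cd55 and 1.34 to 1.40 for Dmrt2. Counts of genes past the test depended more on the processing. Fitting the series table called 1833 genes higher and 2050 lower. It gave 2 higher complement regulators, 0 lower DMRT genes, 0 lower and 0 higher somite genes, 1 lower and 2 higher elongation genes, 2 higher neighbours, and 1 lower and 10 higher marker genes. Without the dye term 2965 genes were higher and 2551 lower, and 20 marker genes were higher against 30 with it. With the processed signals 2 elongation genes were lower and 3 higher. With the 8 channels as samples 2 complement regulators were higher. With processed signals over 100 only, 0 somite genes were lower and 1 was higher. With 1 array left out, 2180 to 2813 genes were lower, 1 to 2 complement regulators higher, 0 somite genes lower, and 1 to 3 elongation genes lower and 3 to 4 higher. At 1.5-fold on each array the study's cut-offs left 103 genes. The causes were not tested. Slide and scan time could not be fitted as blocks, since all arrays share them. Each array pairs 1 treated with 1 control pool, so that the ratios are paired values. The number of arrays and, for the dim Tcerg1l probes, the signal over background limit the precision of the ratios.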
